A study of Mus musculus with 69 samples.

Results

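BBA mice retain 1 of the 4 Stat5 alleles of a mouse (Stat5a+/- Stat5b-/-), and the CD8+ T cells of these mice were sequenced with and without IL-15, so the changes read here are those that arise when a single Stat5a allele is present. The comparison was chosen by its labels alone and took in 12 of the 69 samples of the series, namely 6 BBA libraries without cytokine and 6 with IL-15, with 2 of each in naive (Tnv), central memory (Tcm) and effector memory (Tem) cells. The 12 matching wild type (WT, Stat5a+/+ Stat5b+/+) libraries and 4 BBA libraries given IL-7 (2 Tnv, 2 Tcm) were used for comparison. The alleles were deleted in the germ line of C57BL/6 mice, so they were absent from every cell of the animal throughout development, and the mice were 8 to 16 weeks old. By Y-linked genes, all libraries without cytokine and with IL-15 came from females and 3 of the 4 with IL-7 from males. CD8+ cells from pooled lymph nodes and spleen were sorted as CD44 low CD62L high (Tnv), CD44 high CD62L high (Tcm) or CD44 high CD62L low (Tem). Cytokine was given at 10 ng/ml for 12 to 16 h by the labels and 12 to 18 h by the methods. Whether the cells without cytokine were cultured for the same time or processed straight from the animal is given differently by the labels and the methods, so the effect of IL-15 and that of time in culture cannot be told apart in any comparison with these libraries. Nothing in the labels ties a replicate number to a mouse, and p-values measure the spread between libraries.

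IL-15 reaches CD8+ T cells through IL-2Rβ (Il2rb) and the common γ chain (Il2rg), which carry the kinases JAK1 and JAK3. These phosphorylate STAT5A and STAT5B, which are closely related transcription factors from neighbouring genes, and STAT5 dimers bind the DNA motif TTCNNNGAA and turn on genes for survival (Bcl2), kinases of growth (Pim1), cytokine receptors (Il2ra) and inhibitors that feed back on the receptor (Cish, Socs2). The same receptor also signals through PI3K and MAP kinase, and it maintains memory CD8+ T cells and supports their slow division.

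For orientation, the 9-base motif was searched in RefSeq promoter windows (GRCm38.p6, 250 bases before to 50 after each start). TTCNNNGAA is its own reverse complement, so a match counts for both strands. It was found in 8.3% of all windows and in 8.67% of genes tested here that had a window, in 9.5% of genes higher and 11.3% of genes lower with IL-15 in BBA cells, and in 7 of the 20 known STAT5 target genes with a window (35%). Sites are shown for Cish, Socs3, Lta and Gzmb, known STAT5 targets whose IL-15 response differed between BBA and WT cells below, in at least 1 state or over the 3 states. The motif is in capitals and each sequence is written 5′ to 3′ on the gene's strand.

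Cish, chr9:107296659-107296667, plus strand: ccgcccagttTTCCTGGAAagttcttgga
Cish, chr9:107296670-107296678, plus strand: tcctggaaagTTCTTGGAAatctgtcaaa
Socs3, chr11:117969512-117969520, minus strand: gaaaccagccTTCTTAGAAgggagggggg
Lta, chr17:35205495-35205503, minus strand: accatcactcTTCAGGGAAccaggcttcc
Lta, chr17:35205359-35205367, minus strand: ccgactccctTTCCCAGAAcgcagtagtc
Gzmb, chr14:56262289-56262297, minus strand: ggcaggagttTTCATAGAAagca

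The sites in Cish lie 11 bases apart. A match describes letters and was not tested as a binding site here.

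The BBA libraries held 7125235 to 17809302 counts on genes (9957938 to 17809302 without cytokine and 7125235 to 12214284 with IL-15), and the WT libraries 11723977 to 25612758. Levels are given as CPM, counts per 1000000 counts after scaling between libraries (TMM), and a gene was called when it changed over 1.5-fold with an adjusted p under 0.05 (edgeR quasi-likelihood F test, Benjamini-Hochberg). Stat5a stood at 43 ± 4.1 CPM in BBA and 84.1 ± 12.4 CPM in WT libraries (SD, n = 12 each), and Stat5b at 72.4 ± 14.6 and 234 ± 49.1 CPM, with no overlap between genotypes for either gene. Stat5b reads in cells without a functional Stat5b allele do not show which part of the gene was deleted. Genes of the CD8 lineage summed to 2860 to 5040 CPM in BBA libraries, while 4 of 7 erythroid markers were at 0 in all of them. Sums were 92.1 to 583 CPM for B cell markers, 65.8 to 336 CPM for myeloid markers and 36.5 to 158 CPM for genes of the CD4 lineage in BBA libraries, and the part of other cells in the results was not tested. Among WT libraries, Tnv IL-15 replicate 2 stood apart at 599 CPM for the CD4 lineage (33.9 to 102 CPM in the others) and had the lowest CD8 sum (2450 CPM). Without that library the difference in response between genotypes, described below, was called for 121 genes in Tnv in place of 77. In these bulk samples, fewer cells of a type and less RNA per cell cannot be told apart. Reads on 1469 receptor genes of families that lymphocytes do not normally use (olfactory, vomeronasal and trace amine receptors, less 5 genes at 10 CPM or more) rose to 596 CPM in BBA Tnv IL-15 replicate 1, 303 in BBA Tem IL-15 replicate 2 and 497 in WT Tem IL-15 replicate 2, and results are also given without these 3 libraries where that moves them. All 3 are libraries with IL-15, so leaving them out trims that arm only. BBA Tem no cytokine replicate 2, at 290 CPM, was kept.

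With IL-15, 1735 genes were higher and 620 lower over the 3 states of BBA cells, which is 21% of the 11202 genes tested (15.5% higher, 5.53% lower). By state, 1300 genes rose and 674 fell in Tnv (17.6% of genes, 11.6% higher and 6.02% lower), 194 rose and 259 fell in Tcm (4.04%, 1.73% and 2.31%), and 640 rose and 466 fell in Tem (9.87%, 5.71% and 4.16%). With a filter that keeps more genes of low count (filterByExpr), Tnv had 2098 higher and 2118 lower genes in place of 1300 and 674. That alternative changes the genes tested as well as those used for scaling. In all 3 states, 128 genes were called higher and 171 lower. Leaving out the 3 libraries with the most silent receptor reads, 100 were higher in every state (67 of them also with all libraries) and 110 lower (94). Treating equal replicate numbers as pairs moved the calls in Tcm to 770 higher and 487 lower and those in Tem to 1050 and 693. A single library weighed on the counts of each state, since Tnv called 514 genes without its no-cytokine replicate 1, Tcm 39 without its IL-15 replicate 2, and Tem 234 without its no-cytokine replicate 2.

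Genes that rose and genes that fell sat at different levels of expression. The median mean level was 6.82 CPM for genes that rose over 3 states, 39.6 CPM for those that fell and 34.4 CPM for all genes tested. Of tested genes under 5 CPM, 66.9% were higher and 2.51% lower, whereas of genes at 50 CPM or more 3.56% were higher and 6.1% lower. The count filter kept a gene when its highest library exceeded 81.4 normalized counts. A gene with a mean under 5 CPM was thus tested only if at least 1 library stood above 5 CPM. The part of the filter in this pattern was not tested. With a limit of 20 CPM, 457 genes rose and 333 fell over the 3 states. By state these counts were 435 against 375 (Tnv), 159 against 194 (Tcm) and 296 against 307 (Tem). Without the 3 libraries with the most reads on the silent receptor genes, 1030 genes were called higher and 589 lower over 3 states, with 835 against 524 (Tnv), 478 against 330 (Tcm) and 168 against 201 (Tem) by state.

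**Figure D1:**
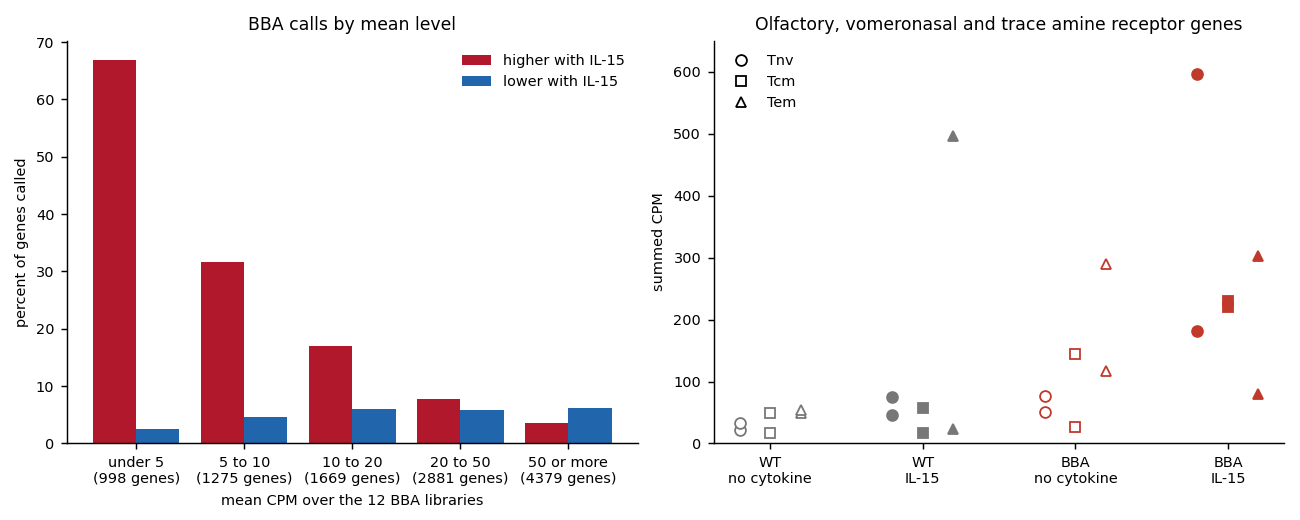
Left: percent of genes called higher (red) or lower (blue) with IL-15 over the 3 BBA states, by mean CPM over the 12 BBA libraries. Right: summed CPM of silent receptor genes in each library of WT (grey) and BBA (red) cells, open without cytokine and filled with IL-15; BBA libraries without cytokine reach 290 CPM and those with IL-15 reach 596 CPM.

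Bcl2, Pim1, Socs2, Il2ra and Cdkn1a were the known STAT5 target genes that rose, and they covered survival, growth kinase, feedback, receptor and cell cycle roles. Of the 24 listed targets tested in BBA cells, 5 were higher and 9 lower (median log2 fold change −0.299, all genes 0.014), while in WT cells 14 were higher and 2 lower (median 0.8). Among all genes tested, 15.5% were higher and 5.53% lower in BBA cells, and 5.17% and 3.7% in WT cells. The 5 higher targets in BBA cells are thus near the share of all genes. Socs2 and Cdkn1a had mean levels under 5 CPM, where 66.9% of the genes that passed the count filter were called higher. Leaving out the 3 libraries with the most silent receptor reads (the doubted libraries below), 6 of 23 targets were higher and 8 lower in BBA cells. Fold changes below are log2, IL-15 minus no cytokine, with standard errors, over 6 libraries against 6 unless a state is named.

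Bcl2 (chr1:106538178-106714274, minus strand), the antiapoptotic gene that keeps memory cells alive, rose in each BBA state. Its level went from 160 and 113 CPM without cytokine to 191 and 243 CPM with IL-15 in Tnv, from 132 and 125 to 306 and 269 CPM in Tcm, and from 76 and 82.4 to 186 and 195 CPM in Tem. The libraries did not overlap in any state, and the change was 1.05 ± 0.12 over the 3 states (adjusted p = 6.18e-05). In WT cells, Bcl2 stood at 249 to 422 CPM without cytokine and 676 to 1110 CPM with IL-15, so every BBA library with IL-15 lay below the WT median without it (357 CPM). The WT change was 1.43, and the difference between genotypes of −0.38 did not pass the test (adjusted p = 0.152). The level of Bcl2 was thus lower in BBA cells on both sides of a fold change of like sign.

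Pim1 (chr17:29490753-29496112, plus strand), a kinase that supports growth and survival downstream of cytokine receptors, went from 65.2 and 79.9 to 106 and 139 CPM in Tnv, from 47.1 and 73.7 to 95.7 and 105 CPM in Tcm, and from 56.4 and 70.1 to 174 and 168 CPM in Tem. All 6 BBA libraries with IL-15 were above all 6 without, by 0.99 ± 0.15 (adjusted p = 0.000328). WT cells reached 309 to 612 CPM with IL-15, a change of 1.81, and the difference of −0.81 passed the limit narrowly (adjusted p = 0.0481). It did not in most fits that left out a library, for example without WT Tnv no cytokine replicate 1 (−0.71, adjusted p = 0.0822) or BBA Tnv IL-15 replicate 1 (−0.74, adjusted p = 0.0814). Its paralog Pim2 changed by 0.49 ± 0.09 in BBA cells (adjusted p = 0.00137), which is under the fold limit, by 0.61 without the 3 doubted libraries, and by 1.07 in WT cells.

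Socs2 (chr10:95385362-95417180, minus strand), a feedback inhibitor of cytokine receptors, had one of the largest folds among the listed targets but a low level. It went from 0.32 and 0.534 to 5.16 and 6.89 CPM in Tnv, from 0.76 and 0.378 to 2.48 and 3.07 CPM in Tcm, and from 0.986 and 1.18 to 3.1 and 11 CPM in Tem. The change of 2.9 ± 0.43 (adjusted p = 0.00034) was 2.59 without the 3 doubted libraries, and it was 3.18 in WT cells (difference −0.28, adjusted p = 0.734).

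Il2ra (chr2:11642807-11693193, plus strand), which encodes the α chain of the high-affinity IL-2 receptor, went from 2.45 and 3.08 to 19.2 and 11.5 CPM in Tnv, from 3.04 and 2.27 to 7.14 and 6.06 CPM in Tcm, and from 7.68 and 10.1 to 17.5 and 21.1 CPM in Tem. It rose by 1.62 ± 0.25 in BBA cells (adjusted p = 0.000387) and by 1.57 in WT cells. Cdkn1a, an inhibitor of cyclin-dependent kinases, ranged from 0.771 to 2.47 CPM without cytokine (median 1.24) and from 2.58 to 9.55 CPM with IL-15 (median 4.09), a rise of 1.67 ± 0.32 (adjusted p = 0.00151). Both genes rose from low levels.

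The 9 listed targets that fell in BBA cells with IL-15 were Socs3, Pim3, Osm, Myc, Ccnd2, Gzmb, Prf1, Bcl6 and Ifng, and some of these rose in WT cells. Myc (chr15:61985391-61990374, plus strand), the transcription factor of cell growth, went from 155 and 178 to 49.4 and 62.2 CPM in BBA Tnv, from 137 and 207 to 69.5 and 86.7 CPM in Tcm, and from 64 and 137 to 26.5 and 40 CPM in Tem. It fell by 1.42 ± 0.2 (adjusted p = 0.000207). In WT cells Myc went from 124 to 244 CPM without cytokine (median 175) to 209 to 446 CPM with IL-15 (median 346), and the difference between genotypes was −2.18 ± 0.25 (adjusted p = 2.63e-05). Without cytokine the genotypes overlapped, and with IL-15 the highest BBA library (86.7 CPM) was below the lowest WT library (209 CPM).

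Ccnd2, the G1 cyclin D2, went from 577 and 559 to 234 and 303 CPM in BBA Tnv, from 475 and 555 to 385 and 385 CPM in Tcm, and from 439 and 484 to 257 and 238 CPM in Tem, a fall of −0.78 ± 0.11 (adjusted p = 0.000246). WT cells changed by 0.03, and the difference of −0.82 was called (adjusted p = 0.00791). Osm, which encodes the cytokine oncostatin M, fell by 0.93 ± 0.18 in BBA cells and rose by 0.89 in WT cells (difference −1.82). Osm stood at 14.8 to 22.7 CPM without cytokine and 7.01 to 12.5 CPM with IL-15 in BBA libraries. Socs3, a feedback inhibitor, changed by −0.67 ± 0.17 in BBA cells (adjusted p = 0.00659) and 0.84 in WT cells (difference −1.51, adjusted p = 0.0147), and the BBA call was lost without the 3 doubted libraries (−0.56) or BBA Tem no cytokine replicate 2 (−0.54). The WT call of Socs3 was lost without WT Tnv IL-15 replicate 2 (0.43) and 5 other single WT libraries (0.68 to 0.84). Pim3, a paralog of Pim1, changed by −0.82 and Bcl6, a repressor of effector genes, by −0.84 in BBA cells.

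Other targets of the WT response were not called over the 3 BBA states, some only for falling short of the fold limit. Cdk6 (chr5:3341485-3531008, plus strand), a kinase of the G1 phase, was 11.4 and 19.2 CPM without cytokine and 8.64 and 10.1 CPM with IL-15 in BBA Tnv, 7.67 and 14.8 against 7.94 and 11.7 CPM in Tcm, and 14.7 and 17.6 against 12.6 and 10.7 CPM in Tem (−0.44, adjusted p = 0.0862). With the filterByExpr set of genes Cdk6 was called lower (−0.61). WT cells went from 8.79 to 20 CPM without cytokine to 38.7 to 121 CPM with IL-15, a rise of 2.35. The difference was −2.79 ± 0.33 over the 3 states (adjusted p = 3.42e-05) and −2.53, −3.52 and −2.35 in Tnv, Tcm and Tem, each called. The call in Tem was lost with filterByExpr (adjusted p = 0.276), without the 3 doubted libraries (adjusted p = 0.177) and without any of 10 single libraries (adjusted p = 0.0504 to 0.193), which were BBA Tem no cytokine replicate 2, BBA Tem IL-15 replicate 2, WT Tem no cytokine replicates 1 and 2, WT Tem IL-15 replicate 1, WT Tnv no cytokine replicates 1 and 2, both WT Tcm libraries with IL-15 and BBA Tcm IL-15 replicate 1. The call in Tnv was lost without the 3 doubted libraries (adjusted p = 0.0564) and without BBA Tnv IL-15 replicate 1, BBA Tnv no cytokine replicate 2 or either WT Tnv library without cytokine (adjusted p = 0.0534 to 0.0906).

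Cish (chr9:107296026-107302784, plus strand), the feedback inhibitor whose promoter holds both sites printed above, was at 3.2 and 3.26 CPM without cytokine and 3.76 and 6.04 CPM with IL-15 in BBA Tnv, 4.03 and 2.65 against 6.15 and 4.17 CPM in Tcm, and 9.16 and 7.35 against 11.7 and 10.7 CPM in Tem. The BBA change of 0.57 ± 0.2 did not reach the fold limit (adjusted p = 0.0378), and that of WT cells was 1.33. Cish was called higher in BBA cells without the 3 doubted libraries (0.69, adjusted p = 0.0288) and without BBA Tnv IL-15 replicate 1 (0.61), BBA Tcm no cytokine replicate 1 (0.63) or BBA Tcm IL-15 replicate 2 (0.63). Every WT library without cytokine (9.31 to 47.7 CPM) was above every BBA library of the same state, with or without IL-15. In Tcm, WT Cish went from 9.92 and 9.31 to 62.8 and 51.3 CPM, and there the difference between genotypes was −1.9 (adjusted p = 0.0141). That call was lost without WT Tcm IL-15 replicate 1 (−1.8), BBA Tcm no cytokine replicate 1 (−1.57) or BBA Tcm IL-15 replicate 2 (−1.67).

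Socs1, another feedback inhibitor, was at 71.4 and 82.7 CPM without cytokine and 38.9 and 42 CPM with IL-15 in BBA Tnv, 54.1 and 84.1 against 69.1 and 86.7 CPM in Tcm, and 52.2 and 62 against 42.9 and 65.3 CPM in Tem. The change over the BBA states was −0.25 (adjusted p = 0.294), that of WT cells 1.03, and the difference −1.28 (adjusted p = 0.00297). Lta, which encodes lymphotoxin α and was chosen after its values were seen, changed by −0.43 in BBA cells (adjusted p = 0.013, under the fold limit, and −0.61 and called with filterByExpr) and 1.1 in WT cells (difference −1.54).

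**Figure D2:**
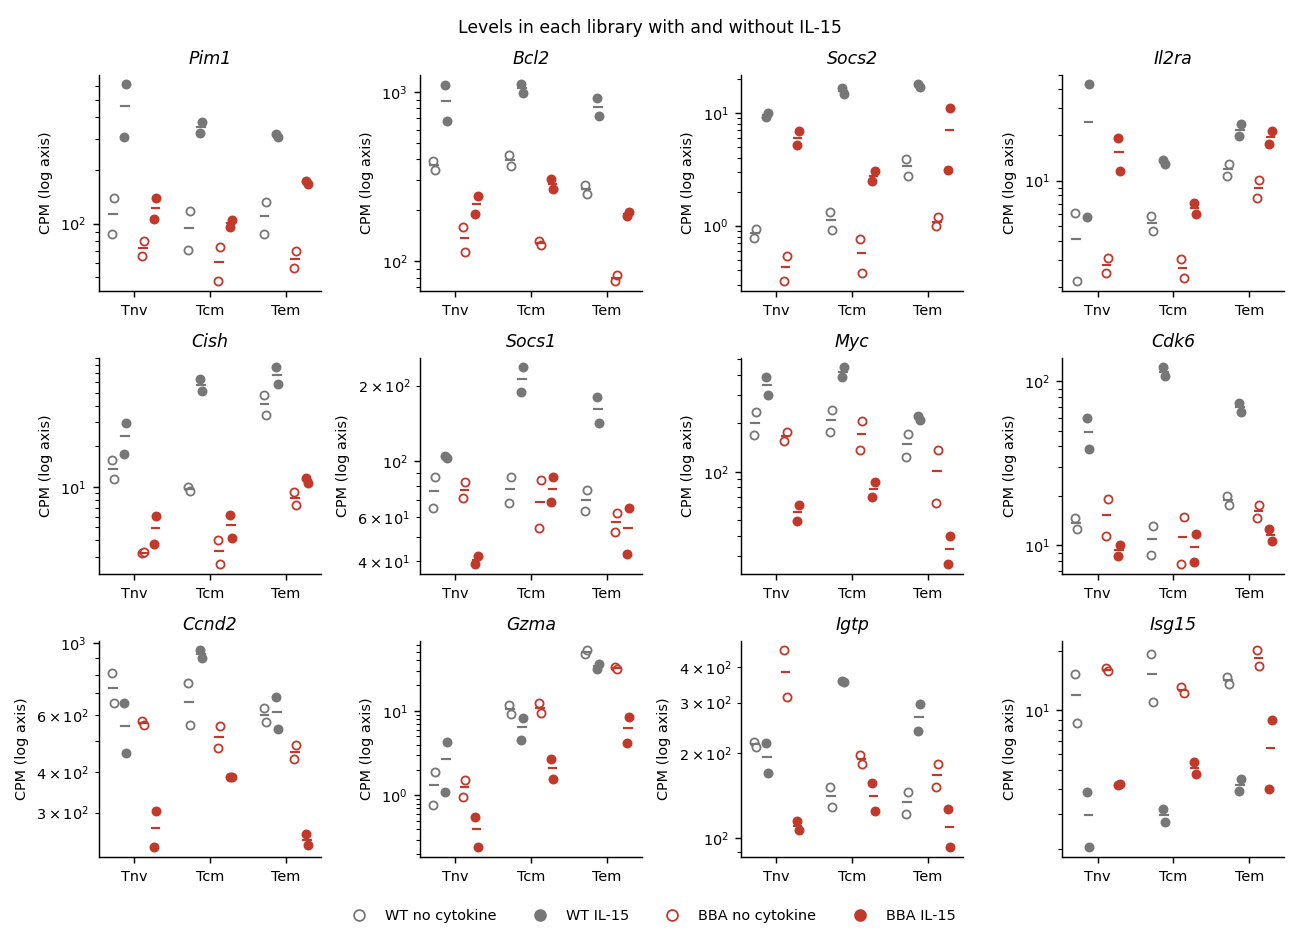
Level of 12 genes in each library (CPM, log axes) in Tnv, Tcm and Tem cells, with WT in grey and BBA in red, open circles without cytokine, filled circles with IL-15 and dashes at the mean of 2 libraries. Pim1, Bcl2, Socs2 and Il2ra are higher with IL-15 in both genotypes, whereas Myc and Ccnd2 are lower in every BBA state and Cdk6 is higher only among WT libraries.

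The receptor itself changed little at its β chain and fell at its γ chain and its kinase. Of 11 tested receptor chains and JAKs, 1 (Il2ra) was higher and 4 lower in BBA cells, beside 15.5% higher and 5.53% lower among all genes tested. Il2rb changed by −0.05 and Jak1 by 0.11, neither of which passed the test. Jak3, the kinase bound to the γ chain, went from 435 to 656 CPM without cytokine to 167 to 338 CPM with IL-15, a fall of 1.0 ± 0.16 on the log2 scale (adjusted p = 0.000455), and also fell in WT cells (−0.69). Il2rg went from 545 to 658 CPM to 311 to 444 CPM (−0.59 ± 0.08, adjusted p = 0.000153), a value just past the fold limit that fell short of it without the 3 doubted libraries (−0.53), BBA Tem no cytokine replicate 2 (−0.54) or either BBA Tem library with IL-15 (−0.56 and −0.55). Il21r, the IL-21 receptor, fell in each BBA state, from 210 to 245 CPM to 94.5 to 144 CPM (−0.98 ± 0.09, adjusted p = 1.15e-05). Il4ra, the IL-4 receptor α chain, fell by 0.68 in BBA cells and changed by 0.18 in WT cells (difference −0.86, called), and its BBA call was lost without BBA Tem no cytokine replicate 2 (−0.56).

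Genes of cytotoxic function were lower or not called in BBA cells with IL-15. Of 19 tested members, 8 were lower and none higher (median −0.668), and in WT cells 7 were lower and none higher (median −0.519). Among all genes tested, 5.53% were lower and 15.5% higher in BBA cells, and 3.7% and 5.17% in WT cells. The 10 NK cell markers, of which 2 were at 0 in all 12 BBA libraries and Nkg7 is also on the cytotoxic list, summed to 227 to 603 CPM without cytokine and 161 to 308 CPM with IL-15 in BBA cells, with both libraries lower in every state. In WT cells they summed to 275 to 532 and 118 to 462 CPM, and their part in the cytotoxic falls was not tested. Gzma (chr13:113093825-113100981, minus strand), which encodes granzyme A, went from 12.3 and 9.33 to 2.68 and 1.57 CPM in Tcm and from 33.3 and 30.9 to 4.16 and 8.35 CPM in Tem, a fall of 2.25 ± 0.25 over the BBA states (adjusted p = 6.31e-05). The WT Tem libraries went from 46.9 and 51.8 to 31.7 and 36.1 CPM, and over the 3 states the difference between genotypes was −2.06 (adjusted p = 0.00508). With IL-15, both BBA Tem libraries lay below both WT Tem libraries.

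Gzmb, which encodes granzyme B, spread widely without cytokine, from 0.533 to 59 CPM in BBA cells (median 4.54), and was 0.362 to 9.86 CPM with IL-15 (−1.85 ± 0.57, adjusted p = 0.0197). Its call was lost without BBA Tem no cytokine replicate 1 (−1.46, adjusted p = 0.0602). The difference from WT was −4.05 in Tcm, where it was called but lost without WT Tcm no cytokine replicate 2 (−3.64), WT Tcm IL-15 replicate 1 (−3.9), BBA Tcm no cytokine replicate 1 (−3.14) or BBA Tcm IL-15 replicate 2 (−3.36), and it was not called over the 3 states (−2.52, adjusted p = 0.0678). With replicate numbers as a block the difference over 3 states was called (−2.65, adjusted p = 0.0349), as it was with the edgeR 4 form of the test (−2.64, adjusted p = 0.036) and without BBA Tcm IL-15 replicate 1 (−2.97), WT Tem IL-15 replicate 1 (−2.96) or WT Tem IL-15 replicate 2 (−3.03). Tnf, an inflammatory cytokine, went from 13.3 to 49.7 CPM to 2.05 to 9.21 CPM in BBA cells (−2.32 ± 0.32) and changed by −0.09 in WT cells (difference −2.22, adjusted p = 0.00952). Prf1, which encodes perforin, fell to a like extent in both genotypes (−1.15 ± 0.17 in BBA and −1.16 in WT cells), and Ifng fell by 1.69 in BBA cells (adjusted p = 0.0174, and 0.0871 without BBA Tem no cytokine replicate 1 and 0.05 without BBA Tcm IL-15 replicate 2) and by 3.13 in WT cells.

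Over the 3 states, genes of protein, nucleotide and ribosome production fell together in BBA cells and did not in WT cells. Of 29 tested genes of ribosome biogenesis, 18 were lower and 1 higher (median −0.707), against none called in either direction in WT cells (median 0.0472), and 18 differences between genotypes were called lower. Of 20 chaperonins and chaperones, 13 were lower and none higher (median −0.716), against 2 lower in WT cells (12 differences called). Of 23 genes of nucleotide and one-carbon synthesis, 13 were lower and 1 higher (median −0.684), against none in WT cells (13 differences called). The counts of lower genes were 19, 13 and 13 without the 3 doubted libraries, and none of the 3 lists held a gene called higher. The share of all genes called lower was 5.53%. By state (Tnv, Tcm and Tem), differences between genotypes called lower were 2, 18 and 3 for ribosome biogenesis (medians −0.611, −1.08 and −0.686). They were 2, 13 and 4 for chaperonins (−0.513, −0.836 and −0.698) and 5, 13 and 2 for nucleotide synthesis (−0.504, −1.09 and −0.516). Most of these calls were thus in Tcm. Among all genes, 0.443%, 3.73% and 0.248% of differences were called lower.

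Rrp12, which acts in the export and maturation of ribosomal subunits, ranged from 44.3 to 85.2 CPM without cytokine and from 18.6 to 32.4 CPM with IL-15 in BBA cells (−1.24), and WT cells changed by 0.04. Nop2, an RNA methyltransferase of the nucleolus, ranged from 47.1 to 83.5 CPM and from 24 to 38.7 CPM (−1.14), and WT cells changed by 0.14. Neither gene's BBA libraries overlapped between cultures. Nip7, the only gene of the list that was called higher, changed by 0.95 and lost its call without the 3 doubted libraries (0.51).

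Ctps, which makes cytidine triphosphate, went from 24.5 and 26.1 to 11 and 7.97 CPM in BBA Tnv, from 29.9 and 28.4 to 13.4 and 13.5 CPM in Tcm, and from 21 and 26.7 to 9.13 and 9.44 CPM in Tem. It fell by 1.28 ± 0.11 (adjusted p = 9.26e-06), and WT cells changed by 0.05 (difference −1.33). Mthfd1, an enzyme of folate metabolism, fell by 1.21 and Psat1, of serine synthesis, by 1.2. The fall in Ctps was alike in the 3 states, with no BBA library with IL-15 above 13.5 CPM and none without below 21 CPM.

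Hspa8, a constitutive chaperone, went from 2780 to 3600 CPM to 903 to 1310 CPM in BBA cells (−1.51) and changed by −0.54 in WT cells (difference −0.98). Hsp90aa1, the inducible HSP90, went from 619 to 762 CPM to 166 to 279 CPM in BBA cells (−1.64). It changed by −0.62 in WT cells, and by −0.55 and short of the fold limit without WT Tnv IL-15 replicate 2 (difference −1.02). Slc7a5, a transporter of large neutral amino acids, ranged from 39.7 to 72.5 CPM without cytokine and from 20.6 to 29.5 CPM with IL-15 in BBA cells (−1.28), and changed by 0.28 in WT cells (difference −1.56). Of 19 translation initiation factors, 3 were lower in BBA cells and none was called in WT cells, with Eif5a at −0.7 and 0.45. These 4 genes had WT levels with IL-15 that were above those of BBA cells in every library.

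The genes of cholesterol and fatty acid synthesis gave another pattern, in which WT genes rose and BBA genes mostly did not pass the test. Of 26 tested members, 1 was higher and 3 lower in BBA cells (median 0.148), and 12 were higher and 2 lower in WT cells (median 0.535), with 8 differences called lower. Among all genes tested, 15.5% were higher and 5.53% lower in BBA cells and 5.17% and 3.7% in WT cells, and 3.22% of differences were called lower. By state the WT list had 3 genes higher in Tnv, 17 in Tcm and 4 in Tem, and 14 differences between genotypes were called lower in Tcm and none in Tnv or Tem (medians −0.836, −0.168 and −0.376). Acat2, an early enzyme of sterol synthesis that was chosen after its values were seen, ranged from 11.5 to 13.3 CPM without cytokine and from 10.2 to 16 CPM with IL-15 in BBA cells (0.04), while WT cells went from 8.89 to 13.6 CPM to 13 to 37.7 CPM (difference −0.99, adjusted p = 0.00686). Fasn, the fatty acid synthase, fell from 225 to 380 CPM to 111 to 198 CPM in BBA cells (−0.86) and changed by 0.25 in WT cells (difference −1.11). Elovl6, which elongates fatty acids, rose in both genotypes (0.77 and 0.67), short of the fold limit in BBA cells without a filter on low counts (0.56) and in WT cells without WT Tnv IL-15 replicate 2 (0.54). Leaving out the doubted libraries, 4 differences in this list were called in place of 8.

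Genes of the cell cycle were mostly not called in BBA cells, while those of DNA replication rose in WT Tcm. Of 23 tested genes of DNA replication, 3 were lower in BBA cells (Mcm2 at −0.71, a helicase subunit, with a difference of −0.96 from WT) and 2 of 25 were higher in WT cells. In Tcm, 19 of 25 were higher in WT cells (median 1.15) and none of 23 in BBA cells (median −0.333), with 13 differences called lower (median −1.54), and no difference was called in Tnv or Tem. Of 22 genes of mitosis, 4 were higher in BBA cells and 7 in BBA Tnv alone. Among all genes tested, 15.5% were higher over the BBA states, which the count of 4 is near, and 11.6% in BBA Tnv. Lower genes made up 5.53% over the BBA states, and higher genes 5.17% over the WT states and 2.93% in WT Tcm. Birc5, which encodes survivin, went from 2.56 and 2.13 to 17.1 and 15.1 CPM in BBA Tnv, from 9.04 and 4.29 to 10.6 and 9.05 CPM in Tcm, and from 15.1 and 12.3 to 12.8 and 40.6 CPM in Tem (1.37 ± 0.39, adjusted p = 0.0132). Its call was lost without BBA Tem IL-15 replicate 2 (1.18, adjusted p = 0.0518). Mki67, the proliferation marker, ranged from 8.54 to 140 CPM without cytokine and changed by −0.59 (adjusted p = 0.0636). Both Tnv libraries with IL-15 stood apart for Birc5, and in Tem only the doubted replicate 2 did. Of 23 mitosis genes tested without the 3 doubted libraries, 1 was higher and 1 lower.

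**Figure D3:**
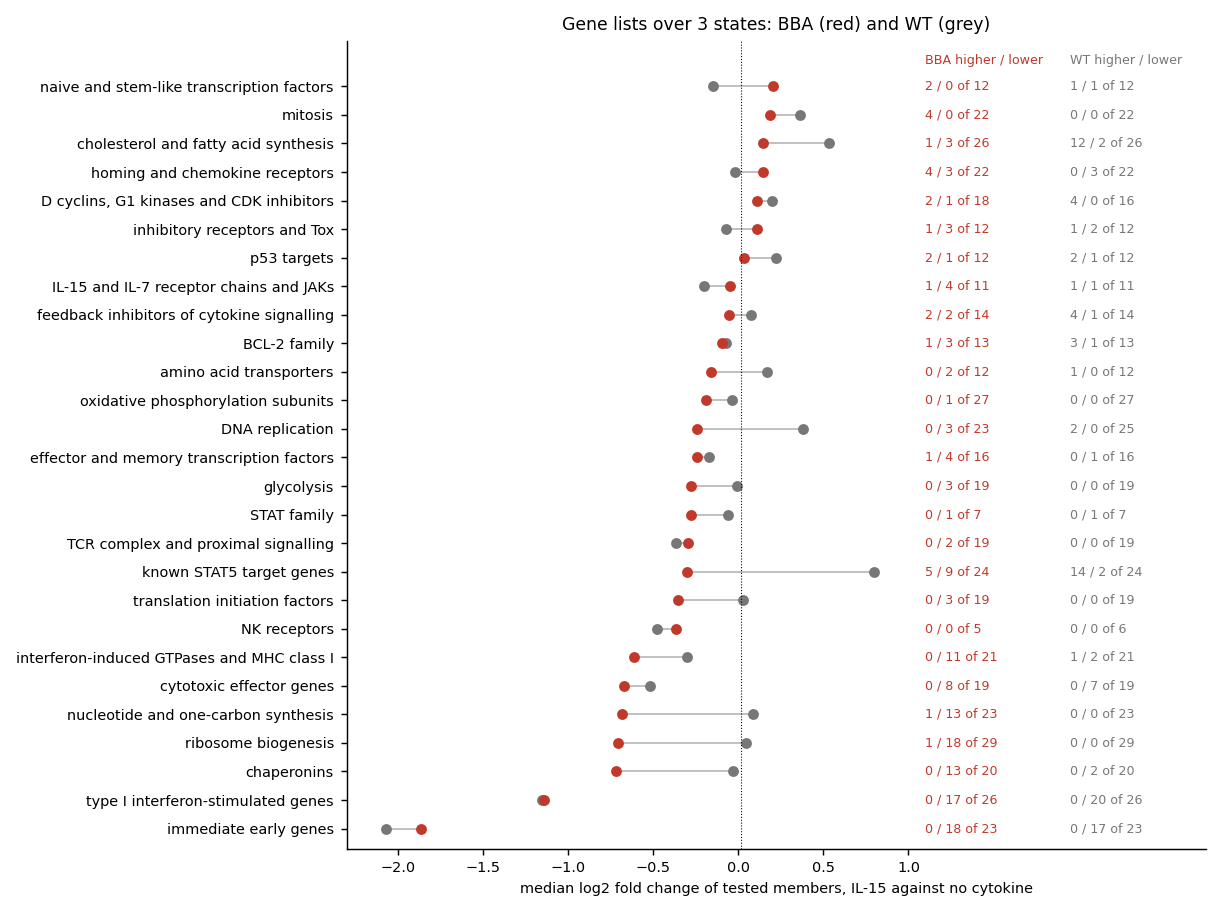
Median log2 fold change, IL-15 against no cytokine over 3 states, of the tested members of each of 27 gene lists in BBA (red) and WT (grey) cells, with the number of members called higher and lower at the right and a dotted line at the BBA median of all genes. Ribosome biogenesis, chaperonins and nucleotide synthesis lie near −0.7 in BBA cells and near 0 in WT cells, and known STAT5 targets lie at −0.299 and 0.8.

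Immediate early genes fell in both genotypes. Of 23 immediate early genes, which are switched on within minutes of stimulation or handling, 18 were lower in BBA cells (median −1.86) and 17 in WT cells (median −2.07), and no difference between genotypes was called. Among all genes tested, 5.53% were lower in BBA cells and 3.7% in WT cells. Fos went from 211 to 614 CPM without cytokine to 2.08 to 9 CPM with IL-15 in BBA cells (−6.35 ± 0.4 and −7.63 in WT cells), and Jun from 316 to 651 CPM to 7.67 to 21.1 CPM (−4.93 ± 0.28 and −4.67). Hspa1b, a heat shock gene, went from 66.4 to 135 CPM to 0.394 to 2.51 CPM (−6.58 ± 0.3 and −7.82). The activation marker Cd69 fell by 2.68 and 2.61. Since the time in culture of the libraries without cytokine is given differently by the labels and the methods, culture and IL-15 cannot be told apart for these genes. The same holds for Dtx1, a target of Notch signalling, which went from 240 to 544 CPM to 34.6 to 61.6 CPM in BBA cells (−3.08 and −2.88 in WT cells).

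Interferon-stimulated genes divided into a shared part and a part that was lower in BBA cells. Of 26 type I interferon-stimulated genes, 17 were lower in BBA cells (median −1.14) and 20 in WT cells (median −1.15), with Isg15 at −1.56 and −2.05 and Oas2, a sensor of viral RNA, at −2.15 and −2.22. Isg15 ranged from 12.2 to 20.1 CPM without cytokine and from 3.99 to 9 CPM with IL-15 in BBA cells. Of 21 interferon-induced GTPases and MHC class I genes, 11 were lower in BBA cells and 2 lower and 1 higher in WT cells, and 4 differences were called lower. In Tnv alone, 14 were lower in BBA cells (median −1.01) and 8 in WT cells (median −0.478), and 2 differences were called there, whereas in Tcm 3 were lower in BBA cells and 3 higher in WT cells. Among all genes tested, 5.53% were lower over the BBA states and 3.7% over the WT states. In Tnv these shares were 6.02% and 2.67%, and in Tcm 2.31% were lower in BBA and 2.93% higher in WT cells. Igtp, a GTPase of defence against intracellular pathogens, ranged from 152 to 457 CPM without cytokine and from 93 to 157 CPM with IL-15 in BBA cells (−0.92) and rose by 0.73 in WT cells (difference −1.65). Gbp11, a guanylate binding protein, showed a difference of −3.14 (BBA −1.74, WT 1.37). The WT rises were lost without any of WT Tcm no cytokine replicates 1 and 2, WT Tem no cytokine replicate 1 and WT Tem IL-15 replicate 2 (0.62 to 0.67 for Igtp and 1.13 to 1.39 for Gbp11), and that of Gbp11 also without WT Tcm IL-15 replicate 2 (1.14). With the doubted libraries left out, 9 of the 21 GTPase and MHC genes were lower in BBA cells and 2 differences were called.

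Of 22 homing and chemokine receptors, 4 were higher and 3 lower in BBA cells, and none was higher and 3 lower in WT cells. Among all genes in BBA cells 15.5% were higher, which the count of higher receptors is near, and 5.53% were lower. S1pr1, which guides T cells out of lymph nodes, went from 406 and 396 to 738 and 661 CPM in BBA Tnv, from 275 and 299 to 547 and 557 CPM in Tcm, and from 180 and 257 to 318 and 383 CPM in Tem (0.83 ± 0.1, called in each state), against 0.31 in WT cells. Ccr7, the receptor for entry into lymph nodes, rose by 0.72 ± 0.14, S1pr4 by 0.8, and Klf2, a transcription factor of S1pr1, by 0.73. Ccr7 and Klf2 fell short of the fold limit with the filterByExpr set of genes (0.55 and 0.56). Cx3cr1, the fractalkine receptor, went from 2.52 to 20.8 CPM to 9.76 to 50.4 CPM (1.66 ± 0.35, adjusted p = 0.00258) and changed by 0.2 in WT cells (difference 1.46, adjusted p = 0.0339). The call of that difference was lost with filterByExpr (1.35, adjusted p = 0.051) and without the 3 doubted libraries (1.19). It was also lost when any of several single libraries of either genotype was left out (1.28 to 1.45). Cxcr4, the receptor for CXCL12, fell in both genotypes (−1.11 and −2.1).

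The remaining lists stand beside 15.5% higher and 5.53% lower among all genes tested over the BBA states. The BCL-2 family had 1 higher (Bcl2) and 3 lower of 13, feedback inhibitors 2 and 2 of 14, naive and stem-like transcription factors 2 and 0 of 12, effector and memory transcription factors 1 and 4 of 16, and inhibitory receptors with Tox 1 and 3 of 12. No NK receptor of 5 was called, glycolysis had 3 lower of 19, amino acid transporters 2 lower of 12, oxidative phosphorylation 1 lower of 27, the TCR complex 2 lower of 19, p53 targets 2 higher and 1 lower of 12, and D cyclins, G1 kinases and CDK inhibitors 2 higher and 1 lower of 18. Mcl1, a survival gene of the BCL-2 family, changed by −0.03 and did not pass the test.

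Some well expressed genes rose more in BBA than in WT cells. Neurl3, which encodes an E3 ubiquitin ligase, went from 117 and 116 to 246 and 308 CPM in BBA Tnv, from 114 and 108 to 214 and 254 CPM in Tcm, and from 89.3 and 86.2 to 256 and 267 CPM in Tem (1.32 ± 0.09, adjusted p = 2.71e-06). It changed by −0.12 in WT cells, and the difference was 1.43 (adjusted p = 0.000111). Cd101, an inhibitory surface receptor, rose by 1.09 in BBA cells and changed by −0.28 in WT cells (difference 1.37). The genes that follow were chosen after their values were seen. Thra, the thyroid hormone receptor α, went from 13.3 to 31.2 CPM to 36.5 to 75.1 CPM in BBA cells (1.44 ± 0.09) and changed by 0.53 in WT cells (difference 0.91, adjusted p = 0.000619). Ypel3, linked to growth arrest, rose by 1.2 ± 0.08 (WT 0.55, difference 0.65, and 0.53 to 0.58 without WT Tcm no cytokine replicate 2, WT Tcm IL-15 replicate 1 or BBA Tem no cytokine replicate 2, which ended the call), and Aqp3, a water and glycerol channel, by 1.44 ± 0.18 (difference 0.87). The Ypel3 difference was also not called with filterByExpr (0.54) or without a filter on low counts (0.52).

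Neat1 (chr19:5824708-5845478, minus strand), a long noncoding RNA of nuclear paraspeckles that was also chosen after its values were seen, went from 272 and 288 to 967 and 1130 CPM in BBA Tnv, from 193 and 215 to 760 and 927 CPM in Tcm, and from 204 and 242 to 839 and 722 CPM in Tem. The rise of 1.94 ± 0.09 (adjusted p = 2.3e-07) stood beside 1.4 in WT cells. Igf1r, the receptor for insulin-like growth factor 1, rose by 1.51 ± 0.13 (WT 1.11).

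Reads on Mir142, the gene of the blood cell microRNA miR-142, rose alike in both genotypes. Mir142 went from 6.13 to 12.9 CPM without cytokine to 28.5 to 56.9 CPM with IL-15 in BBA cells (2.23 ± 0.17) and changed by 2.31 in WT cells; the gene was chosen after its values were seen. Its precursor overlaps Mir142b on the other strand, poly(A)+ libraries hold the primary transcript and not the mature microRNA, and without strand the pair cannot be told apart. The mature sequences of RefSeq (GRCm38.p6) are given to identify the gene, with the seed (bases 2 to 8) in capitals.

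mmu-miR-142a-5p, chr11:87756867-87756887, plus strand: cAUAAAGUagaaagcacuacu
mmu-miR-142a-3p, chr11:87756903-87756925, plus strand: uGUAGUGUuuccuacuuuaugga

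The seeds of the arms differ, so they do not form a shared seed group.

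The largest folds upward belonged to genes at low levels without cytokine. A gene near 0 in those libraries could be tested only if a library with IL-15 passed the count filter (81.4 normalized counts). Falls from such levels could thus not be called. Tbx3, a T-box transcription factor of development, went from 0.107 and 0.178 to 10.9 and 9.54 CPM in BBA Tnv, from 0.152 and 0.378 to 3.77 and 4.41 CPM in Tcm, and from 0.493 and 0.726 to 5.46 and 22.4 CPM in Tem (4.72 ± 0.48). Slc18a3, the vesicular acetylcholine transporter, went from 0 to 0.817 CPM to 1.79 to 17.9 CPM (5.1), and Tbx18, another T-box gene, from 1.39 to 4.99 CPM to 16.7 to 104 CPM (3.91). Each was highest in BBA Tem IL-15 replicate 2, one of the libraries with the most reads on silent receptor genes. The silent receptor genes summed to 50 and 77.3 CPM without cytokine and 596 and 182 CPM with IL-15 in Tnv, 145 and 27 against 221 and 230 CPM in Tcm, and 117 and 290 against 80.2 and 303 CPM in Tem. Their part in these rises was not tested.

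Tests of the difference between states called few genes. None of the 11202 genes differed between Tcm and Tnv or between Tem and Tcm by the edgeR test (394 and 235 had an unadjusted p under 0.05), and 5 differed between Tem and Tnv (0.0446%), 4 with a higher value in Tem (0.0357%) and 1 with a lower value (0.00893%). DESeq2 called 25, 2 and 59. Gbp7, an interferon-induced GTPase, fell in Tnv from 288 and 269 to 58.3 and 59.1 CPM (−2.21), while in Tem it stood at 167 and 177 against 147 and 111 CPM (−0.42). Cd7, a surface receptor of T cells, rose in Tnv from 66 and 72.3 to 139 and 118 CPM (0.93) and fell in Tem from 200 and 155 to 116 and 98.7 CPM (−0.72). Tnk2, a nonreceptor tyrosine kinase, fell in each state and most in Tnv (131 and 132 to 17 and 19.9 CPM). No gene was called between Tem and Tnv without the 3 doubted libraries.

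The response of WT cells was in part contained in that of BBA cells. In a single fit over the 24 libraries (11294 genes), 584 genes were higher and 418 lower with IL-15 in WT cells over the 3 states (8.87% of genes, 5.17% higher and 3.7% lower). Of those higher in WT, 424 were also called higher in BBA cells, which is 72.6% of the WT calls and 24.4% of the 1739 BBA calls, and of those lower, 230 were called lower in BBA cells (55% and 36.7% of 626). At 20 CPM or more, 86 of 171 genes higher in WT were also called higher in BBA cells (50.3%, and 20% of 429 BBA calls). Opposite calls were made for 10 genes. Gbp11, Igtp, Map3k8, Myc and Osm were higher in WT and lower in BBA cells, and 5830416P10Rik, A430088P11Rik, Art4, Fam65c and Scrn3 were the reverse. Map3k8, a kinase of the ERK pathway, had log2 fold changes of −0.74 in BBA and 0.86 in WT cells.

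The genotypes differed most in Tcm. The difference in response (BBA minus WT) was called for 27 higher and 50 lower genes in Tnv (0.682% of genes, 0.239% and 0.443%), for 185 higher and 421 lower in Tcm (5.37%, 1.64% and 3.73%), and for 1 higher and 28 lower in Tem (0.257%, 0.00885% and 0.248%). Over the 3 states 430 were higher and 364 lower (7.03%, 3.81% and 3.22%), and with the filterByExpr set of genes 288 and 507. Paired by replicate number, 382, 1150 and 175 genes were called in Tnv, Tcm and Tem. In WT cells 5.08% of genes were called in Tnv (2.42% higher, 2.67% lower), 6.26% in Tcm (2.93% and 3.33%) and 2.29% in Tem (1.01% and 1.28%). Of 331 genes higher in WT Tcm, 50 were also higher in BBA Tcm (15.1%, and 13.8% of the 362 BBA calls), 28 were lower, and 147 had a called difference against the WT direction. In Tnv and Tem the genes higher in WT were also called in BBA cells for 134 of 273 (49.1%, and 8.75% of BBA calls) and 64 of 114 (56.1%, and 7.65%). Whether the states differ in this respect was not tested. Without WT Tem IL-15 replicate 2, the count over 3 states was 1326 in place of 794, and without WT Tcm IL-15 replicate 1 that in Tcm was 328. In Tnv and Tem, 119 and 3 differences were called without the 3 doubted libraries, and single WT libraries moved the counts to 18 in Tnv and 1 in Tem (each without no-cytokine replicate 1 of that state).

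**Figure D4:**
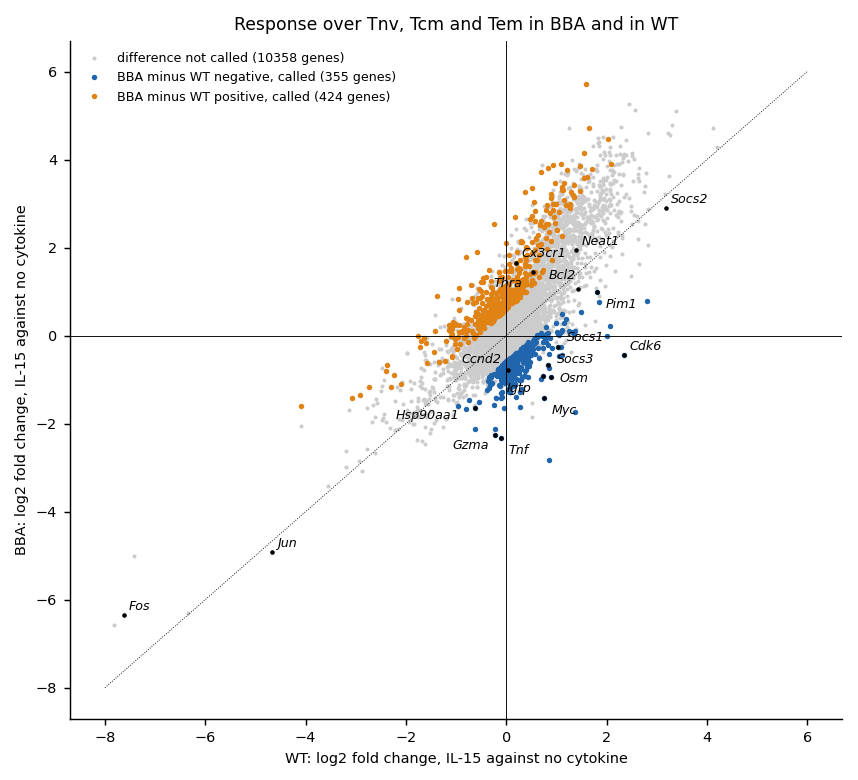
Log2 fold change with IL-15 over 3 states in WT (x axis) and BBA cells (y axis) for each gene tested in both fits, with called differences between genotypes in blue (BBA lower) and orange (BBA higher) and a dotted line of equality. Counts in the legend are of plotted genes and are thus below the 794 called in all; Fos and Jun lie near the line, while Myc and Cdk6 lie below it on the WT-higher side.

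BBA cells given IL-7, another γ chain cytokine, were sequenced in Tnv and Tcm. IL-15 against IL-7 called 1299 genes higher and 372 lower in Tnv (15% of 11120 genes, 11.7% higher and 3.35% lower) and 20 higher and 56 lower in Tcm (0.683%, 0.18% and 0.504%). The count was 639 in Tnv without its IL-7 replicate 2 and 18 in Tcm without its IL-15 replicate 2. Both Tnv libraries with IL-7 and 1 of 2 in Tcm came from males, and all libraries with IL-15 from females, so in Tnv sex and cytokine cannot be told apart and Y-linked genes led the falls. The IL-15 libraries also serve in the comparison with no cytokine.

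Bcl2 stood at 895 and 912 CPM with IL-7 in BBA Tnv, beside 191 and 243 CPM with IL-15, and at 619 and 519 CPM beside 306 and 269 CPM in Tcm (differences −2.03, adjusted p = 2.65e-05, and −0.99, adjusted p = 0.0134). Pim1 was 259 and 255 CPM with IL-7 in Tnv and 275 and 233 CPM in Tcm, above every BBA library with IL-15 (differences −1.03 and −1.35). Socs1 was 123 and 124 CPM with IL-7 in Tnv and 202 and 195 CPM in Tcm (−1.58 and −1.35), beside 38.9 to 86.7 CPM with IL-15 in these states. The 3 targets were thus higher with IL-7 than with IL-15 in both states at the single Stat5a allele.

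Myc was 166 and 121 CPM with IL-7 in Tnv, within or below the range without cytokine (155 and 178 CPM) and above that with IL-15 (difference −1.33). Ccnd2 was 511 and 402 CPM with IL-7 in Tnv, above both libraries with IL-15 (234 and 303 CPM) and below both without cytokine. Rtp4, an interferon-stimulated gene, stood at 75.4 and 58.7 CPM with IL-7 in Tnv and at 5.92 to 11.7 CPM with IL-15 in Tnv and Tcm, and was lower with IL-15 than with IL-7 in both states (−3.21 and −2.82). Neurl3 was higher with IL-15 than with IL-7 in Tnv (0.72). Every library with IL-7 was above every library without cytokine of the same state for Rtp4.

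**Figure D5:**
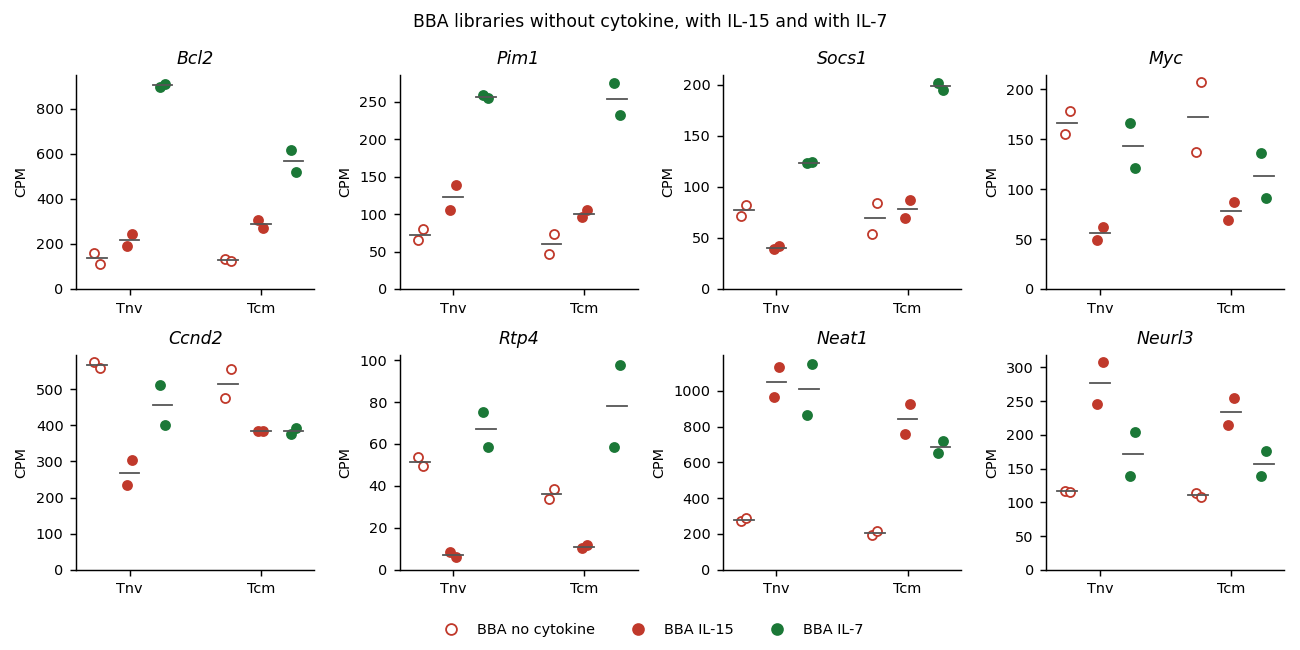
Level of 8 genes (CPM, linear axes from 0) in each BBA library without cytokine (open), with IL-15 (red) and with IL-7 (green) in Tnv and Tcm, with dashes at the mean of 2 libraries. Bcl2, Pim1, Socs1 and Rtp4 are higher with IL-7 than with IL-15 in both states, whereas Neat1 is higher in the libraries with either cytokine than in those without. Cytokine and time in culture cannot be told apart in that comparison.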

How the data were processed

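RNA from sorted CD8+ T cells was sequenced as 50 bp single-end poly(A)+ libraries. The authors deposited raw counts per gene, made per the labels with TopHat2, Cufflinks and HTSeq. The processing notes name mm9 and the methods mm10, and strand in counting is not given in the sources used here. A Jaccard filter kept genes whose highest library exceeded a threshold (81.4 normalized counts in the BBA fit). Counts were tested with edgeR 4.0.16 (TMM, quasi-likelihood F test, R 4.3.3), with DESeq2 1.42.0 as an alternative. The BBA fit held 12 libraries, with state as a covariate where states were joined, the fit with WT 24 and that with IL-7 16. A fit of 2 against 2 libraries took its spread from all states.

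Genes of 27 lists (508 entries), the known targets of the pathway and the genes with the largest called changes were named by a fixed rule. The members, lists and rule were chosen with earlier results of these data known. Gene positions are from GENCODE vM21 and promoters and microRNAs from RefSeq, both on GRCm38. Scripts were tested on simulated counts.

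Samples with equal replicate numbers deviated together within a state (correlations of 0.268, 0.472 and 0.536 in BBA Tnv, Tcm and Tem and 0.337, 0.588 and 0.414 in WT). Values as high occurred elsewhere, such as 0.629 between BBA Tnv IL-15 and BBA Tcm no cytokine. Between genotypes they ran from −0.35 to 0.741 (WT Tem IL-15 and BBA Tem IL-15). The correlations thus do not show that equal numbers pair libraries of 1 mouse. A blocked fit was run as an alternative beside the unblocked one. No pair of replicates agreed within sampling noise. Alternatives were other filters, normalization, tests, adjustments and fold limits and leaving out each library. A level limit of 20 CPM and the fit without 3 libraries were added after seeing the data. The result of 1 gene is not reported here.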

Additional observations from a re-analysis of the deposited data

Results flagged for a closer look

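The response to IL-15 differed between Tem and Tnv in BBA cells for 5 genes by the interaction test of edgeR, and none of these calls remained without the 3 libraries with the most reads on silent receptor genes.

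Responses of BBA and WT cells differed by the same kind of test for 77 genes in Tnv, 606 in Tcm, 29 in Tem and 794 over the 3 states. Equal numbers of libraries stood behind each state, and whether the counts differ between states was not tested.

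Reads on receptor genes that lymphocytes do not normally use summed to 596 CPM in BBA Tnv IL-15 replicate 1. The range was 27 to 290 CPM in the BBA libraries without cytokine. In WT libraries it was 16.9 to 53.9 CPM without cytokine and 16.7 to 497 CPM with IL-15. Those of these genes that passed the count filter were not taken out of the comparisons above. Whether such reads add to the rises of low genes in that library was not tested.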

How the results depend on the processing

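No called value changed sign under the alternatives run, but counts of genes called moved with the filter, the fold limit and single libraries. With 2 libraries a group, counts by state are the least firm, and the BBA libraries with IL-15 had the lowest median total (9010682 counts). Whether changes come from IL-15 or from culture cannot be told apart. All values of this paragraph are genes called, and the main values were 1974, 453, 1106 and 2355 in BBA Tnv, Tcm, Tem and all 3 states, 0, 5 and 0 for Tcm against Tnv, Tem against Tnv and Tem against Tcm, 77, 606, 29 and 794 for BBA against WT, 574, 707, 259 and 1002 for WT, 1671 and 76 for IL-15 against IL-7 in Tnv and Tcm, and 162 for members of the lists. The cause of each move was not tested, except that stricter limits call fewer genes by construction. With filterByExpr the count was 4216 in Tnv and 4623 over 3 states, 0 between Tem and Tnv, 51 and 0 for BBA against WT in Tnv and Tem, and 5541 for IL-7 in Tnv. Without a filter it was 4744 in Tnv, 699 in Tcm and 4811 over 3 states, 8 between Tcm and Tnv and 10 between Tem and Tnv, 373 and 0 for BBA against WT in Tcm and Tem, and 5941 and 153 for IL-7, and this alternative moved the median log2 fold change of all genes from 0.0325 to 0.429 in Tnv and from 0.014 to 0.204 over 3 states. DESeq2 gave 959 in Tcm and 1672 in Tem, 25, 59 and 2 between states, 284 and 145 for BBA against WT in Tnv and Tem, 546 in WT Tem and 266 for IL-7 in Tcm. A Bonferroni adjustment left 61, 20, 26 and 368 in BBA cells, 65 of the list members, 0 between Tem and Tnv, 9, 61, 3 and 101 for BBA against WT, 109, 118, 46 and 261 in WT cells, and 62 and 17 for IL-7. A fold limit of 2 left 1306, 212, 607 and 1436 in BBA cells, 76 of the list members, 293 and 301 for BBA against WT in Tcm and over 3 states, and 307, 335, 130 and 547 in WT cells. The 4 Tem libraries fitted alone called 42, and the fit over 24 libraries called 711 in BBA Tcm. At 20 CPM or more the counts were 810 in Tnv, 603 in Tem and 790 over 3 states, 64 and 468 for BBA against WT in Tem and over 3 states, 381 for WT over 3 states and 395 for IL-7 in Tnv. Without the 3 libraries with the most silent receptor reads they were 808 in Tcm and 369 in Tem, 0 between Tem and Tnv, 119 and 3 for BBA against WT in Tnv and Tem, and 154 in WT Tem.

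The replicate block with 1 number shared by all groups called 935 genes in Tcm, 3 and 12 for Tcm and Tem against Tnv, 303, 1022 and 171 for BBA against WT in Tnv, Tcm and Tem, 496 in WT Tem and 155 for IL-7 in Tcm. Paired within state and genotype, 1257 were called in Tcm, 1743 in Tem, and 382, 1150 and 175 for BBA against WT in Tnv, Tcm and Tem, and the pairing moved no other count by over 1.5 times.

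Leaving out 1 library at a time gave 514 to 2462 genes in Tnv (lowest without BBA Tnv no cytokine replicate 1), 39 to 947 in Tcm (without BBA Tcm IL-15 replicate 2), 234 to 1885 in Tem (without BBA Tem no cytokine replicate 2) and 1719 to 2579 over 3 states, with the highest count of each single state without BBA Tem IL-15 replicate 1. The range was 154 to 165 for list members, 0 to 6 between Tem and Tnv, 0 to 1 between Tem and Tcm and 0 to 0 between Tcm and Tnv. For BBA against WT it was 18 to 144 in Tnv (lowest without WT Tnv no cytokine replicate 1), 328 to 698 in Tcm (WT Tcm IL-15 replicate 1), 1 to 100 in Tem (WT Tem no cytokine replicate 1) and 610 to 1326 over 3 states (highest without WT Tem IL-15 replicate 2). WT cells alone gave 259 to 639 in Tnv (lowest without WT Tnv no cytokine replicate 2), 330 to 754 in Tcm (WT Tcm IL-15 replicate 1), 91 to 631 in Tem (WT Tem no cytokine replicate 2; highest without WT Tem IL-15 replicate 1) and 815 to 1269 over 3 states. IL-15 against IL-7 gave 639 to 2060 in Tnv (lowest without BBA Tnv IL-7 replicate 2) and 18 to 111 in Tcm (BBA Tcm IL-15 replicate 2). Among values of single named genes under all alternatives, 17212 kept their side of the threshold, 1181 lost a call, 286 gained one and 0 changed sign after being called.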
